A study of Homo sapiens with 12 samples.

Results

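The complement system is a cascade of serum and membrane proteins in which one protease activates the next. Transcripts of 9 of its components and regulators were followed in FaDu cells, a head and neck squamous cell carcinoma (HNSCC) line. These genes were chosen by name from the pathway, with earlier results of these data known: C1R, C1S, C3, CFB, CFI, SERPING1, CD46, CD55 and CD59. They were 9 of 58288 genes listed, and all 9 were among the 15973 genes tested. The design asked how loss of STING, a sensor adaptor of cytosolic DNA signalling encoded by TMEM173, alters gene expression at baseline and after radiation. RNA-Seq was carried out in 4 groups of 3 libraries: unirradiated STING WT, unirradiated STING KO, irradiated STING WT and irradiated STING KO. Irradiation was 4 daily fractions of 2 Gy, and the time from the last fraction to RNA collection is not given in the sources used here. All cells were grown in DMEM with 10% FBS, carried Cas9 delivered by lentivirus, and were selected with puromycin. STING WT cells had a non-targeting guide RNA and STING KO cells 1 guide RNA against STING, so that each genotype is a single guide. The labels do not say whether the libraries of a group came from separate cultures, and the p-values measure the spread between these libraries, which may be technical.

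Complement can be started by antibody-bound C1, in which the proteases C1r and C1s are activated in turn and are blocked by C1 inhibitor, the product of SERPING1. It can also be amplified by the alternative pathway, in which factor B joins fragments of C3 to form the enzyme that cleaves more C3. Host cells are spared by factor I, a protease that inactivates deposited fragments, by its cofactor CD46, by CD55, which speeds the decay of the C3-cleaving enzymes, and by CD59, which blocks the membrane attack complex. The liver makes most of the serum proteins, but epithelial cells also transcribe several of them, and many complement genes are known to respond to interferons and inflammatory cytokines.

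Expression is given as transcripts per 1000000 (TPM), a measure scaled to gene length and library size. It keeps no depth, so values carry no counting interval and the spread between libraries is their error. Differences were tested with limma on log2(TPM + 1), a scale that understates changes of weakly expressed genes, and p-values were adjusted over all genes tested, with 0.05 as the threshold. TMEM173 was 21.1 to 23.5 TPM in unirradiated STING WT libraries and 5.18 to 6.96 TPM in unirradiated STING KO libraries. After radiation it was 21.4 to 26.1 TPM in STING WT and 6.35 to 7.41 TPM in STING KO. Transcripts of the targeted gene thus remained at a lower level in STING KO cells, in which loss of the protein had been checked by immunoblot in the study. Between libraries of a group, log2(TPM + 1) over all 58288 genes listed correlated at 0.993 to 0.995. Of these genes, 25770 were at 0 in all libraries, and each library had 14860 to 15292 genes at 1 TPM or more. All 8 squamous epithelial markers were detected at 1 TPM or more, as were 1 of 5 leukocyte, 0 of 5 hepatocyte, 1 of 4 fibroblast and 2 of 4 endothelial markers. In bulk RNA, fewer cells of a type and less RNA per cell cannot be told apart.

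CD59 and CD46 had the highest length-scaled levels of the 9 genes. Over the 12 libraries, mean expression was 109 TPM for CD59, 66.0 TPM for CD46, 38.8 TPM for CD55, 36.6 TPM for CFI, 25.1 TPM for C3, 15.5 TPM for CFB, 10.9 TPM for C1S, 5.26 TPM for C1R and 5.01 TPM for SERPING1. Library ranges did not overlap between CD46 and CD55, between CFI and C3, or between C1S and C1R. All other neighbours in this order overlapped, among them C1R and SERPING1 at the lower end. By group mean, CD55 and CFI changed places with treatment. Mean CFI was 39.8 TPM and mean CD55 34.1 TPM in unirradiated STING WT, and 43.6 and 25.8 TPM in unirradiated STING KO. In both irradiated groups mean CD55 was the higher. Libraries of the 2 genes overlapped in unirradiated STING WT (CFI 38.2 to 41.7 TPM, CD55 28.9 to 39.8 TPM) but not in the other groups. The plot of TPM by library gives the 12 values of every gene.

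**Figure D1:**
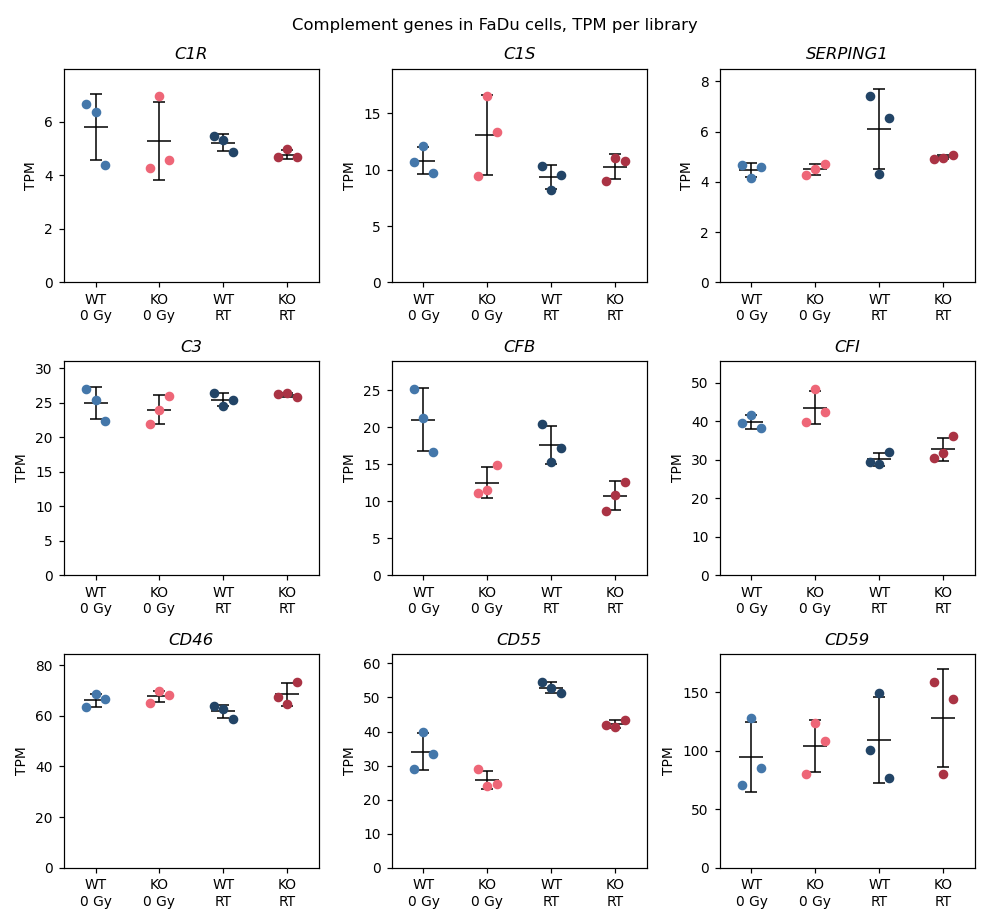
TPM of the 9 complement genes in each library (points) of the 4 groups, with group means and SD (n = 3); each panel has its own linear axis starting at 0. CFB was lower in all STING KO libraries than in the STING WT libraries of the same treatment, CD55 was higher and CFI lower in all irradiated libraries than in the unirradiated libraries of the same genotype, and CD59 overlapped between all groups.

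CFB and CD55 had the most negative STING KO differences of the 9 genes in both arms, and CD55 and CFI were the members that changed with radiation. The 250 bases before the RefSeq start of these 3 genes (GRCh38.p14, 5′ to 3′ on the strand of the gene) are shown because these genes carry the differences described here. Capitals mark a match to the interferon-stimulated response element searched as TTTCNNTTTC or to the interferon-gamma-activated site searched as TTCNNNGAA, each on both strands. CFB lies at chr6:31945845-31946094 on the plus strand, CD55 at chr1:207321428-207321677 on the plus strand and CFI at chr4:109802000-109802249 on the minus strand.
CFB: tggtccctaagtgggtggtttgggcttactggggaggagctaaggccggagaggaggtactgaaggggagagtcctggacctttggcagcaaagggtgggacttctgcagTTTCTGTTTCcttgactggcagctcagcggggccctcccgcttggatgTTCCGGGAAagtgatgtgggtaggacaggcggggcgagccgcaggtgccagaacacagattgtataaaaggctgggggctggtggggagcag
CD55: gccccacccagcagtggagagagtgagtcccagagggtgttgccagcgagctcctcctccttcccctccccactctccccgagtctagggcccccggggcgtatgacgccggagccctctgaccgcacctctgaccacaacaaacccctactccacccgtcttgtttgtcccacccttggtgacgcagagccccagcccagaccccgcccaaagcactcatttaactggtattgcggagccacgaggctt
CFI: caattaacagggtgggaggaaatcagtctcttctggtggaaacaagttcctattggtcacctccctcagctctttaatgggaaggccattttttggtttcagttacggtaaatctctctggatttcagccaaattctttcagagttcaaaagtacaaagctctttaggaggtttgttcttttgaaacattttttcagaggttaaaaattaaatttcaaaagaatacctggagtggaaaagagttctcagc
CFB held a match to both motifs, the first at 140 to 131 bases and the second at 92 to 84 bases before the start, with no overlap between them. The second matched on both strands because the searched pattern TTCNNNGAA, though not the bases found, reads the same on both. The windows searched ran from 250 bases before the start over the first 50 bases of the transcript, and those of CD55 and CFI held neither motif. CFB, CD55 and CFI held no match to the NF-kB consensus. GC content of the printed bases was 60.0% for CFB, 64.0% for CD55 and 38.0% for CFI.

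Among 34796 RefSeq promoters of that 300-base window, 3.57% held the interferon-stimulated response element, 7.67% the gamma-activated site and 5.91% the NF-kB consensus, on either strand. Of the 6 members with an entry, 1 (CFB) held the first motif and none held the NF-kB consensus. The second was also found in 1 of 2 C1R promoters and in 2 of 4 CD59 promoters, which cover a single shared site. CD46 held no match in 2 promoters, and C1S, C3 and SERPING1 were not examined. A match describes the letters of the window and not binding.

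Among the members that start the classical pathway, no difference passed the threshold. C1R (ENSG00000159403.15, chr12:7080199-7092607, minus strand, GRCh38 with GENCODE 29 spans here and below) encodes the first protease of C1. It was 6.65, 6.36 and 4.39 TPM in unirradiated STING WT and 4.29, 6.94 and 4.58 TPM in unirradiated STING KO libraries. The irradiated libraries were at 5.47, 5.32 and 4.86 TPM in STING WT and 4.67, 4.96 and 4.68 TPM in STING KO. The groups overlapped in every comparison, and the STING KO difference was -0.13 on the log2 scale in unirradiated cells (95% interval -0.49 to 0.24, limma adjusted p = 0.796).

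C1S (ENSG00000182326.14, chr12:6988259-7071032, plus strand), whose annotated span ends 9167 bases from that of C1R, encodes the protease that C1r activates. It was 10.6, 12.1 and 9.71 TPM in unirradiated STING WT and 9.45, 16.5 and 13.3 TPM in unirradiated STING KO. In irradiated cells the values were 10.3, 8.20 and 9.56 TPM in STING WT and 9.01, 11.1 and 10.7 TPM in STING KO. The highest value came from 1 unirradiated STING KO library, and again all groups overlapped. Its log2 difference with STING KO was 0.23 in unirradiated cells (95% interval -0.15 to 0.61, limma adjusted p = 0.607) and 0.12 in irradiated cells (95% interval -0.25 to 0.50, adjusted p = 0.763). The span of C1R overlaps C1RL on the same strand, and that of C1S overlaps EMG1 on the same strand and LPCAT3 on the other. Whether the counting used strand is not given in the sources used here.

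SERPING1 (ENSG00000149131.15, chr11:57597387-57614853, plus strand) encodes the inhibitor of both proteases. It was 4.68, 4.14 and 4.60 TPM in unirradiated STING WT and 4.28, 4.52 and 4.71 TPM in unirradiated STING KO. In irradiated STING WT cells it was 7.40, 4.32 and 6.56 TPM, and in irradiated STING KO cells 4.91, 4.95 and 5.07 TPM. All but 1 of the irradiated STING WT libraries exceeded every other library, and that 1 lay inside the unirradiated range. The radiation difference in STING WT cells was 0.35 on the log2 scale (95% interval 0.03 to 0.66, limma adjusted p = 0.227), and in STING KO cells it was 0.12 (95% interval -0.20 to 0.44, adjusted p = 0.725). The STING KO difference was 0.01 without radiation (95% interval -0.31 to 0.32, adjusted p = 0.987) and -0.22 with it (95% interval -0.54 to 0.10, adjusted p = 0.478). Without irradiated STING WT replicate 2, the library at 4.32 TPM, the STING WT radiation difference was 0.54 (adjusted p = 0.0179) and the STING KO difference in irradiated cells -0.41 (adjusted p = 0.0497), and both passed the threshold. The 2 radiation differences were not shown to differ from each other (-0.23, STING KO minus STING WT, 95% interval -0.68 to 0.22, adjusted p = 0.885).

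C3 and CFB encode the proteins of the alternative pathway enzyme. C3 (ENSG00000125730.16, chr19:6677704-6730562, minus strand) encodes the central substrate of the cascade. It was 27.0, 25.4 and 22.4 TPM in unirradiated STING WT and 21.8, 24.0 and 26.0 TPM in unirradiated STING KO. After radiation it was 26.4, 24.6 and 25.3 TPM in STING WT and 26.3, 26.4 and 25.8 TPM in STING KO. All C3 values fell between 21.8 and 27.0 TPM, and the groups overlapped in every comparison. The STING KO difference was -0.05 in unirradiated cells (95% interval -0.23 to 0.12, limma adjusted p = 0.819) and 0.04 in irradiated cells (95% interval -0.13 to 0.21, adjusted p = 0.841) on the log2 scale. Its span overlaps GPR108 on the same strand.

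CFB (ENSG00000243649.8, chr6:31945650-31952084, plus strand) encodes factor B, the protease of that enzyme. In unirradiated cells it was 25.2, 21.2 and 16.6 TPM in STING WT and 11.1, 11.4 and 14.9 TPM in STING KO, with means of 21.0 ± 4.28 and 12.5 ± 2.10 TPM (SD, n = 3). In irradiated cells it was 20.4, 15.3 and 17.2 TPM in STING WT and 8.69, 10.8 and 12.6 TPM in STING KO, with means of 17.6 ± 2.61 and 10.7 ± 1.97 TPM (SD, n = 3). In both arms every STING KO library lay below every STING WT library. Mean TPM in STING KO was 0.594 of that in STING WT without radiation and 0.608 of it after radiation. The log2 difference was -0.70 in unirradiated cells (SE 0.18, 95% interval -1.10 to -0.30, unadjusted p = 0.00269) and missed the threshold after limma adjustment over all genes (adjusted p = 0.0954). In irradiated cells it was -0.67 (SE 0.18, 95% interval -1.07 to -0.28, unadjusted p = 0.00344) and missed it too (adjusted p = 0.0726). The same 2 differences of CFB averaged over both arms, a contrast added after these values had been seen, gave -0.69 (SE 0.13, 95% interval -0.97 to -0.41, adjusted p = 0.00901).

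Irradiated and unirradiated libraries overlapped in CFB in both genotypes. The radiation differences were -0.23 in STING WT (95% interval -0.63 to 0.16, limma adjusted p = 0.562) and -0.20 in STING KO cells (95% interval -0.60 to 0.19, adjusted p = 0.606). The span of CFB overlaps C2 and the readthrough gene AL645922.1 on the same strand. C2, which encodes the classical counterpart of factor B, was at a median of 0.584 TPM. The readthrough gene was at 0 in 9 of 12 libraries, among them all STING WT libraries. It was at 0.0533 and 0.0240 TPM in irradiated STING KO replicates 1 and 2, and at 2.12 TPM in unirradiated STING KO replicate 3. With its TPM added to CFB, that library was at 17.0 TPM and lay above unirradiated STING WT replicate 3 at 16.6 TPM, so these groups then overlapped. The unirradiated STING KO difference with this sum was -0.64 (adjusted p = 0.161) and the averaged one -0.65 (adjusted p = 0.0195).

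CFI (ENSG00000205403.12, chr4:109740694-109802179, minus strand), which encodes factor I, was lower after radiation in both genotypes. It was 39.5, 41.7 and 38.2 TPM in unirradiated and 29.5, 28.8 and 32.1 TPM in irradiated STING WT cells, with means of 39.8 ± 1.74 and 30.1 ± 1.72 TPM (SD, n = 3). In STING KO cells it was 39.9, 48.4 and 42.5 TPM without and 30.4, 31.6 and 36.1 TPM with radiation, with means of 43.6 ± 4.35 and 32.7 ± 2.97 TPM (SD, n = 3). No irradiated library reached the lowest unirradiated library of its genotype. CFI fell by 0.39 on the log2 scale in STING WT (SE 0.085, 95% interval -0.58 to -0.20, limma adjusted p = 0.0340) and by 0.40 in STING KO cells (SE 0.085, 95% interval -0.59 to -0.21, adjusted p = 0.0301). Mean TPM after radiation was 0.757 and 0.751 of that before it. The span of CFI overlaps AC126283.2 on the same strand, a gene that was not among the genes listed.

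The direction of the CFI difference was the same in every fit that left out 1 library, but its call depended on the library left out. It passed the threshold in 5 of 12 such fits in STING WT (adjusted p 0.0270 to 0.114) and in 8 of 12 in STING KO (adjusted p 0.0275 to 0.0964). Leaving out a library of the other genotype does not change the difference itself. The STING WT call was lost whichever STING WT library was left out (adjusted p 0.05445 to 0.114). The STING KO call was lost without unirradiated STING KO replicate 2 or 3 and without irradiated STING KO replicate 1 or 2. The 2 radiation differences of CFI were -0.01 apart (STING KO minus STING WT, 95% interval -0.28 to 0.26, adjusted p = 0.993). STING KO and STING WT cells overlapped in CFI in both arms, with log2 differences of 0.12 (95% interval -0.07 to 0.31, adjusted p = 0.574) in unirradiated and 0.11 (95% interval -0.08 to 0.30, adjusted p = 0.552) in irradiated cells.

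CD55 (ENSG00000196352.14, chr1:207321376-207386804, plus strand), which encodes the decay-accelerating factor, was higher after radiation in both genotypes. It was 28.9, 39.8 and 33.4 TPM in unirradiated and 54.6, 52.6 and 51.5 TPM in irradiated STING WT cells, with means of 34.1 ± 5.49 and 52.9 ± 1.61 TPM (SD, n = 3). In STING KO cells it was 28.9, 24.0 and 24.5 TPM without and 42.0, 41.3 and 43.4 TPM with radiation, with means of 25.8 ± 2.71 and 42.2 ± 1.10 TPM (SD, n = 3). All irradiated libraries exceeded all unirradiated libraries, the closest being irradiated STING KO at 41.3 TPM and unirradiated STING WT at 39.8 TPM. CD55 rose by 0.63 on the log2 scale in STING WT (SE 0.10, 95% interval 0.40 to 0.86, limma adjusted p = 0.00985) and by 0.69 in STING KO cells (SE 0.10, 95% interval 0.46 to 0.92, adjusted p = 0.00610). Mean TPM was 1.55 times that before radiation in STING WT and 1.63 times in STING KO. Both calls held in 12 of 12 fits that left out 1 library, though leaving out a library of the other genotype does not change the difference itself. In a fit of only the 6 libraries compared, the STING WT call was lost (adjusted p = 0.0740).

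The STING KO difference of CD55 was -0.38 in unirradiated cells (SE 0.10, 95% interval -0.61 to -0.15, unadjusted p = 0.00448, limma adjusted p = 0.123). The lowest STING WT library and the highest STING KO library were both at 28.9 TPM, so the groups touched. Without unirradiated STING WT replicate 1, which held that lowest value, the difference was -0.49 and passed the threshold (adjusted p = 0.0438). In irradiated cells every STING KO library was below every STING WT library, and the difference was -0.32 (SE 0.10, 95% interval -0.55 to -0.09, unadjusted p = 0.0120, adjusted p = 0.138). Averaged over both arms it was -0.35 (SE 0.074, 95% interval -0.51 to -0.18, adjusted p = 0.0193), again a contrast added after the values had been seen. The radiation difference of CD55 was 0.06 larger in STING KO than in STING WT cells, with a 95% interval of -0.27 to 0.39 (adjusted p = 0.963).

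CD46 (ENSG00000117335.19, chr1:207752057-207795513, plus strand), a cofactor for factor I, lies 365253 bases from CD55 on the same strand and had the smallest spread within groups of the 9 genes. It was 63.4, 68.5 and 66.6 TPM in unirradiated STING WT and 65.2, 69.6 and 68.2 TPM in unirradiated STING KO. Irradiated libraries held 63.8, 62.7 and 58.8 TPM in STING WT and 67.3, 64.6 and 73.4 TPM in STING KO. The irradiated groups did not overlap, and the STING KO difference there was 0.14 on the log2 scale (95% interval 0.01 to 0.27, unadjusted p = 0.0329, limma adjusted p = 0.228). In unirradiated cells it was 0.03 (95% interval -0.10 to 0.16, adjusted p = 0.864). The radiation differences of CD46 were -0.10 in STING WT (95% interval -0.23 to 0.03, adjusted p = 0.429) and 0.02 in STING KO (95% interval -0.11 to 0.15, adjusted p = 0.926).

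CD59 (ENSG00000085063.14, chr11:33703010-33736491, minus strand), which encodes the inhibitor of the membrane attack complex, varied most between libraries of a group. It was 71.1, 128 and 85.1 TPM in unirradiated STING WT and 80.4, 124 and 109 TPM in unirradiated STING KO. With radiation the values were 101, 149.9 and 76.9 TPM in STING WT and 159, 80.6 and 144 TPM in STING KO. The highest library was 2.24 times the lowest, and all groups overlapped. The span of CD59 overlaps AL049629.2 on the same strand, which was also not among the genes listed. The STING KO difference was 0.16 in unirradiated cells (95% interval -0.56 to 0.87, limma adjusted p = 0.881), and the radiation difference in STING WT was 0.19 (95% interval -0.52 to 0.91, adjusted p = 0.815), so that changes of up to 0.87 and 0.91 on the log2 scale lay within the intervals.

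The residual SD of CD59 within groups was 0.445 on the log2 scale, and 96.0% of 11081 genes whose mean log2(TPM + 1) was at or above that of 5 TPM had a smaller one, against a median of 0.120. CFB (SD 0.240), C1S (0.227), C1R (0.215), SERPING1 (0.180) and CD55 (0.136) also lay above that median, and CFI (0.106), C3 (0.0937) and CD46 (0.0666) below it. The plot of spread against mean expression places the members among all genes tested.

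**Figure D2:**
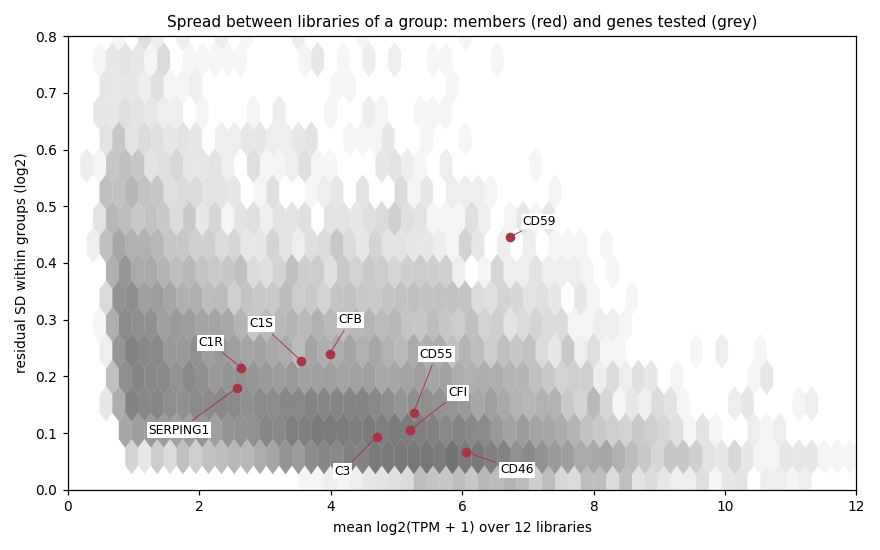
Residual SD within groups (log2 scale, y axis) against mean log2(TPM + 1) over 12 libraries (x axis) for the genes tested (grey, darker where more genes fall) and the 9 members (red); 179 of 15973 genes fall outside the axes. CD59 stands at 0.445 and CD46 at 0.0666.

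As a group, the 9 genes gave few calls, which must be read against the share of all tested genes called in the same contrast. With STING KO, 0 of 9 members passed the limma threshold in unirradiated cells, where 1.73% of all genes did, and 2 of 9 had an unadjusted p below 0.05 (CFB and CD55), where 14.3% of all genes did. In irradiated cells 0 of 9 passed, against 3.59% of all genes, and 3 of 9 had an unadjusted p below 0.05 (CFB, CD55 and CD46), against 17.9%. With radiation, 2 of 9 passed in STING WT, against 3.74% of all genes, and 2 of 9 in STING KO, against 3.69%. In each genotype these were CD55, higher, and CFI, lower. Among all genes, 2.24% were called higher and 1.5% lower in STING WT, and 2% higher and 1.7% lower in STING KO. The difference between the radiation effects was called for 0 of 9 members by limma, against 0.0188% of all genes, and 0 of 9 had an unadjusted p below 0.05, against 6.61%.

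Groups did not overlap for 1 member with STING KO in unirradiated cells (CFB), against 20.6% of all genes, and for 3 in irradiated cells (CFB, CD55 and CD46), against 24.1%. With radiation they did not overlap for 2 members in STING WT (CD55 and CFI), against 24.8% of all genes, and for 3 in STING KO (CD55, CFI and SERPING1), against 24.3%. The median log2 difference of the members with STING KO was 0.01 in unirradiated and 0.04 in irradiated cells, where that of all genes was -0.02 in both. After radiation it was -0.10 in STING WT and 0.02 in STING KO, beside 0.02 in both over all genes. In the averaged contrasts, 2 of 9 members passed with STING KO (CFB and CD55, both lower), against 7.43% of all genes in either direction and 4.96% lower, and 2 of 9 with radiation (CD55 at 0.66, adjusted p = 0.000426, and CFI at -0.40, adjusted p = 0.00257), against 10.2% (6.14% higher, 4.04% lower). Each STING KO contrast shares 1 group of libraries with each radiation contrast, so these are not independent of each other.

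**Figure D3:**
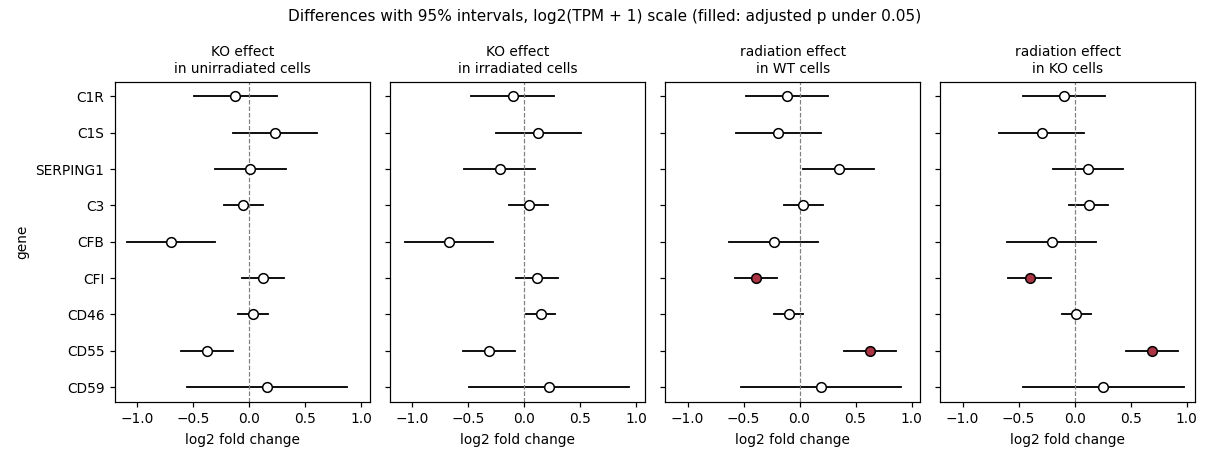
Log2 differences of the 9 members with 95% intervals (bars) on the log2(TPM + 1) scale, 1 panel per contrast (n = 3 libraries per group); filled points passed the limma threshold after adjustment over 15973 genes. CD55 (0.63 and 0.69) and CFI (-0.39 and -0.40) are filled in the radiation panels, and CFB stands at -0.70 and -0.67 in the STING KO panels with open points.

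The wider pathway was described with a list of 55 complement genes that includes the 9 members. Of these, 19 passed the filter on low values, 36 did not, and 15 were listed at 0 in all 12 libraries. Of 14 genes that start the cascade, 3 were tested, and the C1q chains C1QA, C1QB and C1QC, which recognise antibody, were at 0 throughout, as were MBL2, FCN1 and FCN2 of the lectin pathway. Of 7 genes of the convertases and their amplification, 3 were tested (C3, CFB and CFD), while C4A and C4B, which supply the other subunit of the classical enzyme, had medians of 0.261 and 0.227 TPM. None of 7 terminal pathway genes, which build the membrane attack complex, was tested, and the highest value among them was 1.14 TPM (C5).

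Soluble regulators were tested for 4 of 12 genes, among them CLU, which holds back terminal complex assembly, at a median of 71.3 TPM. Membrane regulators were tested for 3 of 5 genes, all of them members. Receptors were tested for 6 of 10 genes, including ITGB2 at a median of 7.43 TPM and C1QBP, a mainly mitochondrial protein named for binding C1q, at 554 TPM. Of the 10 tested genes that are not members, 0 passed the limma threshold in any of the 5 contrasts, with 1 at an unadjusted p below 0.05 for STING KO in unirradiated cells (14.3% of all genes) and 2 in irradiated cells (17.9%). For radiation 0 were below it in STING WT (18.2% of all genes) and 2 in STING KO (18.1%), and for the difference between the radiation effects 0 (6.61%).

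**Figure D4:**
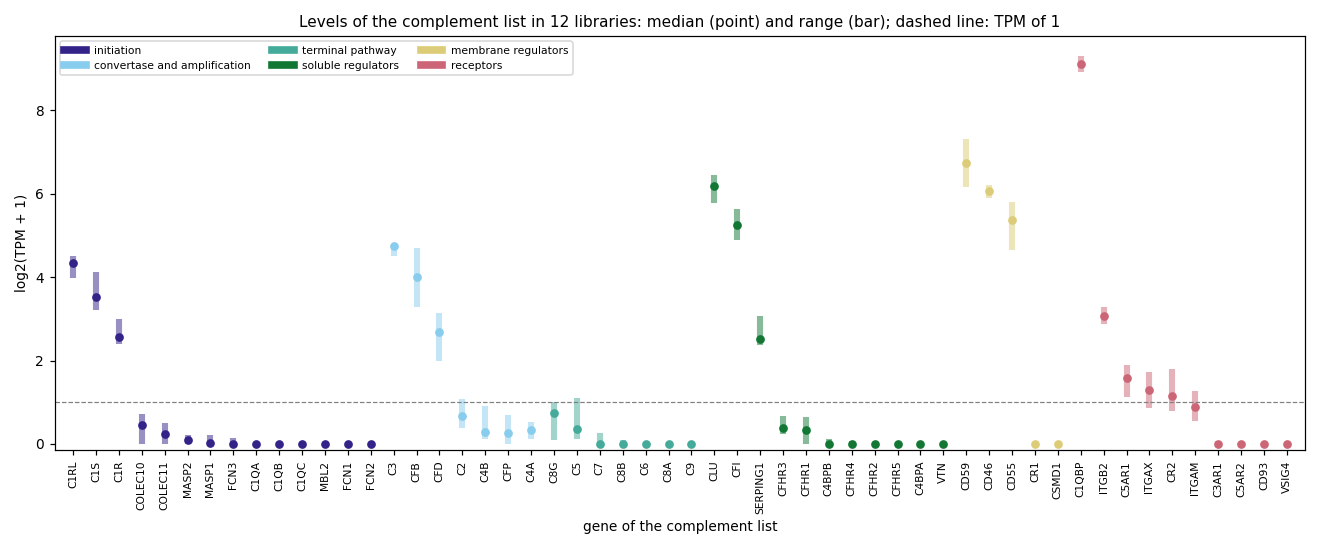
Level of 54 of the 55 genes of the complement list as log2(TPM + 1), grouped by role, with the median (point) and range (bar) of 12 libraries; the dashed line marks 1 TPM. No terminal pathway gene exceeds 1.14 TPM, whereas CD59 reaches 159 TPM and C1QBP 636 TPM.

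The markers of cell types known to make or carry complement proteins were measured beside these genes. The hepatocyte markers summed to at most 0.481 TPM in any library. Among the leukocyte markers, CD14 was 2.62 to 4.35 TPM and PTPRC at most 0.0894 TPM, and the fibroblast marker COL1A1 was 6.34 to 9.23 TPM. The summed endothelial markers were 11.5 to 15.9 TPM in unirradiated and 18.3 to 23.9 TPM in irradiated libraries, with CDH5 at 8.51 to 19.8 TPM, VWF at 2.60 to 4.49 TPM, PECAM1 at most 0.0989 TPM and KDR at most 0.0126 TPM over all libraries. The summed squamous markers were 8619 to 8648 TPM in unirradiated and 7993 to 8516 TPM in irradiated STING WT, and 8372 to 10102 TPM in unirradiated and 7310 to 8312 TPM in irradiated STING KO, with no overlap between treatments in either genotype. The summed leukocyte markers were 2.62 to 3.10 TPM in unirradiated STING WT and 3.78 to 4.61 TPM in unirradiated STING KO, also with no overlap. After radiation they were 3.29 to 3.71 TPM and 3.22 to 3.58 TPM. These sums were mostly CD14, as no other leukocyte marker exceeded 0.400 TPM. The squamous sums were mostly KRT5 (1869 to 4839 TPM) and KRT17 (2962 to 4380 TPM). Over all genes, groups did not overlap for 24.8% with radiation in STING WT and 24.3% in STING KO. With STING KO in unirradiated cells it was 20.6%. The part of these marker shifts in the differences of CD55, CFI and CFB was not tested.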

How the data were processed

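Polyadenylated RNA was sequenced as paired ends on an Illumina NovaSeq. The authors deposited TPM values for 58288 genes in 12 libraries, and the submitters' processing notes name hg38, HISAT2, StringTie and DESeq2. Versions, annotation and strand setting are not given in the sources used here. Columns whose label was read as the non-targeting guide were taken as STING WT. The others carry a label that the sources used here do not link to a guide, and were taken as STING KO, the only other cell population. Replicate numbers were matched to the sample titles. Genes with at least 1 TPM in 3 or more libraries were kept, log2(TPM + 1) was fitted with 4 group means in limma 3.58.1 under R 4.3.3 (eBayes with trend, 8 residual degrees of freedom), with two-sided tests and Benjamini-Hochberg adjustment. The study used DESeq2 on counts, which TPM does not allow. The code was tested on simulated data. Members and gene lists were chosen with earlier results of these data known. All members were named in all contrasts, and other listed genes where they passed the threshold. Spans came from GENCODE 29, with identifier versions that differ from the table's for C1R, CFI, CD55 and CD59, and promoters from RefSeq. Alternatives covered pseudocount, filter, scaling, variance trend, replicate block and libraries left out. The values of 1 gene of the complement list are not reported here.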

Additional observations from a re-analysis of the deposited data

How the results depend on the processing

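CD55 passed with radiation in 8 of 9 other alternatives in STING WT and 9 of 9 in STING KO, and CFI in 6 of 9 in each. Among these 9, adding the readthrough gene to CFB left the values of CD55 and CFI unchanged and so does not test them. Without a filter on low values, 1 member passed with radiation in each genotype, as CFI missed the threshold (adjusted p = 0.0580 and 0.0540). With the replicate block, 1 passed in each (CFI 0.0578 and 0.0518). Replicate numbers did not pair the samples (r of deviations -0.0602 to 0.0641 over 18 pairs). With only the 6 libraries compared, 0 members passed with radiation in STING WT (CFI 0.0603, CD55 0.0740) and 1 in STING KO (CFI 0.135), whereas 1 passed with STING KO in irradiated cells (CD55, 0.0464). CFB with STING KO missed the threshold in either arm in all alternatives (adjusted p 0.0564 to 0.237).

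With 1 library left out, members called ranged from 0 to 1 for STING KO in unirradiated cells, 0 to 1 in irradiated cells, 1 to 2 for radiation in STING WT, 1 to 2 in STING KO, 0 to 0 for the difference between radiation effects, 1 to 2 for the averaged STING KO and 2 to 3 for the averaged radiation contrast. Calls other than those of CFI that changed were CD55 with STING KO without unirradiated STING WT replicate 1 (-0.49, adjusted p = 0.0438), SERPING1 without irradiated STING WT replicate 2, with STING KO (-0.41, adjusted p = 0.0497), with radiation in STING WT (0.54, adjusted p = 0.0179) and with radiation averaged (0.33, adjusted p = 0.0105), and CD55 averaged over arms without unirradiated STING KO replicate 2 (-0.33, adjusted p = 0.05001).

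Directions reversed only at small values: CD46 with radiation in STING KO (-0.014, median-of-ratios factors), C1R (-0.015, quantile normalization) and CFB (-0.030, readthrough added) in the difference between radiation effects, and C3 in the averaged STING KO contrast (0.015 with median-of-ratios factors and 0.021 with quantile normalization). Of 756 leave-one-out values 38 reversed, none of them called. Their ranges for STING KO in unirradiated cells were -0.13 to 0.0084 (C3), -0.036 to 0.038 (SERPING1) and -0.028 to 0.39 (CD59), and in irradiated cells -0.0023 to 0.52 (CD59). For radiation they were -0.041 to 0.089 (C3) and -0.061 to 0.43 (CD59) in STING WT, and -0.21 to 0.088 (C1R) and -0.036 to 0.055 (CD46) in STING KO. For the difference between radiation effects they were -0.092 to 0.20 (C1R), -0.30 to 0.067 (C1S), -0.11 to 0.18 (CFB), -0.081 to 0.065 (CFI), -0.056 to 0.17 (CD55) and -0.17 to 0.37 (CD59), and for the averaged STING KO contrast -0.043 to 0.024 (C3).

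Over all genes, calls fell from 276 to 103, 573 to 252, 597 to 166 and 590 to 195 with only 6 libraries, and from 573 to 378, 597 to 315 and 590 to 359 with the block. For the difference between radiation effects 3 became 7 without a filter and 1 with the block or without a variance trend. Scaling moved the median of all genes by at most 0.03. Depth is unknown, so the spread between 3 libraries is the only measure of error.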

Other observations

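Ratios between members, chosen after the values had been seen, were compared in 12 exact two-sided permutation tests of 3 libraries against 3, for which the smallest possible p is 0.1. The ratio of CFB to C3 was 0.934, 0.835 and 0.744 in unirradiated STING WT and 0.508, 0.477 and 0.572 in unirradiated STING KO libraries. In irradiated cells the same ratio was 0.774, 0.623 and 0.677 (STING WT) and 0.331, 0.411 and 0.489 (STING KO). The genotypes did not overlap in either arm (exact permutation p = 0.1, adjusted p = 0.2). The ratio of CD55 to CD46 was 0.456, 0.581 and 0.502 in unirradiated STING WT, 0.444, 0.345 and 0.360 in unirradiated STING KO, 0.856, 0.840 and 0.874 in irradiated STING WT, and 0.624, 0.638 and 0.591 in irradiated STING KO. It did not overlap in any of the 4 comparisons (exact permutation p = 0.1, adjusted p = 0.2). The ratio of C1S to C1R overlapped in all 4.

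A pair of listed genes outside the 9 members passed the threshold in none of the 5 contrasts but in 1 averaged contrast each, added after the values had been seen. That is 1 of 10 tested genes outside the members in each averaged contrast, against 7.43% of all genes with STING KO and 10.2% with radiation. C1QBP was lower with STING KO (-0.16 on the log2 scale, 95% interval -0.26 to -0.07, limma adjusted p = 0.0490). CFD, which encodes the protease that cleaves factor B, was lower with radiation (-0.50, 95% interval -0.78 to -0.23, adjusted p = 0.0288). In STING WT, CFD was 5.31 to 6.50 TPM in unirradiated and 3.65 to 5.32 TPM in irradiated libraries, so these ranges overlapped. In STING KO it was 6.50 to 7.88 TPM without and 2.96 to 5.51 TPM with radiation. These did not overlap, against 24.3% of all genes without overlap. The radiation difference in STING KO was -0.67 and missed the threshold (limma adjusted p = 0.0651).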
